A study of Homo sapiens with 6 samples.

Results

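Chromosome 21 was compared with chromosome 22 in maps of open chromatin from RKO colon cancer cells under mild replication stress. ATAC-seq peaks had been called in 6 samples, 3 treated with aphidicolin (APH, 0.2 µM, 16 h) and 3 with the solvent DMSO, all grown in 5% O2 and 5% CO2. The regions described here were selected on measured values: a stretch of chromosome 21 became a region when at least 1 sample had a called peak there, and peaks of different samples were merged where they overlapped by 1 bp. This gave 953 regions of 102784 in the genome, 100 of them below 20 Mb (proximal), 144 from 20 to 32 Mb (middle) and 709 beyond 32 Mb (distal), beside 2103 on chromosome 22.

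Aphidicolin blocks the replicative DNA polymerases, and at a low dose it slows replication forks without stopping the cell cycle. Chromosome 21 is a small acrocentric chromosome. Its short arm carries tandem copies of the ribosomal RNA genes among satellite repeats, the start of its long arm is poor in genes, and the end of its long arm is rich in them. ATAC-seq uses a transposase that cuts exposed DNA, so that promoters and enhancers in use give peaks.

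The promoters of 9 genes are shown because the values below turn on them: 4 lie in the proximal part and 2 in the middle part, and of the 3 in the distal part 2 had lower and 1 had higher values with APH. The sequences are from RefSeq on GRCh38.p14, each from 250 bases before the gene's start, printed in the direction of transcription. Capitals mark exact matches on either strand to the GC box (GGGCGG), the ETS site (CCGGAAG), the CCAAT box (CCAAT) and the TATA box (TATAAA); overlapping matches run together. NRIP1 has 3 starts in the table, and the window at the start nearest the centre of its strongest region is printed. A match describes the letters only and does not show that a factor binds. For KRTAP10-7 the region that gave the values (chr21:44600988-44601543) lies past the printed window, so its sequence is not shown. The stronger region of BTG3 (chr21:17611427-17611959) and the weaker one of NRIP1 (chr21:15065656-15066098) also lie outside the printed windows.

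HSPA13 (chr21:14383097-14383396, minus strand): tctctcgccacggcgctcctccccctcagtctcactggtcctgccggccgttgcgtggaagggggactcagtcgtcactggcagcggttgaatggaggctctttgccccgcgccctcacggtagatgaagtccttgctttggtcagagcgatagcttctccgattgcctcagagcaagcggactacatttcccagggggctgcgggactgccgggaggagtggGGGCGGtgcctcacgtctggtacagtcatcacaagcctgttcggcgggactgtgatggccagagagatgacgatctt

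NRIP1 (chr21:15064951-15065250, minus strand): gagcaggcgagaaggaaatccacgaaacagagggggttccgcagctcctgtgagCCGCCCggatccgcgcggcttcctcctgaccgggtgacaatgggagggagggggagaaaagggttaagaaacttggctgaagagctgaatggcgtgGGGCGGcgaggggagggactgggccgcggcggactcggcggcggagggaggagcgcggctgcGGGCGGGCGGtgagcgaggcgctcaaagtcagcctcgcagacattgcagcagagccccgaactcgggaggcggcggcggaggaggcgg

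BTG3 (chr21:17612852-17613151, minus strand): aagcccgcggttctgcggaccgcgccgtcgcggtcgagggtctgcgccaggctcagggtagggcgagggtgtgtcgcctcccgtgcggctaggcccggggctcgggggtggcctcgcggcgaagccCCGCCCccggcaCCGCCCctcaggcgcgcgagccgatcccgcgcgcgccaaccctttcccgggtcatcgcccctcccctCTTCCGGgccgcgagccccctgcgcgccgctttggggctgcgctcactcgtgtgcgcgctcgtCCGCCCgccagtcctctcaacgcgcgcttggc

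C21orf91 (chr21:17819307-17819606, minus strand): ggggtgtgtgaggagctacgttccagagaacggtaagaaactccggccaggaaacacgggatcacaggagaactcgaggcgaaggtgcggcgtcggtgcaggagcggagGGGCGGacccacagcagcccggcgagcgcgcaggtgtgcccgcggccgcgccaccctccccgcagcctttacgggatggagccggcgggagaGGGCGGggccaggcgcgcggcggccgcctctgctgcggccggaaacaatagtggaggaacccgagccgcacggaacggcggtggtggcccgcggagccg

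MRPL39 (chr21:25607432-25607731, minus strand): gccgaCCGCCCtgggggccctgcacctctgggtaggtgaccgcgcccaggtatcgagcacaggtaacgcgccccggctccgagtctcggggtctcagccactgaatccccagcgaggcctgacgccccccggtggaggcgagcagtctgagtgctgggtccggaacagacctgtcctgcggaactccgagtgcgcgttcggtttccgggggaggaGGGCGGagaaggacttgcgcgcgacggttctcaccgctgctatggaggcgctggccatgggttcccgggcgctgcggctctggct

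CCT8 (chr21:29073599-29073898, minus strand): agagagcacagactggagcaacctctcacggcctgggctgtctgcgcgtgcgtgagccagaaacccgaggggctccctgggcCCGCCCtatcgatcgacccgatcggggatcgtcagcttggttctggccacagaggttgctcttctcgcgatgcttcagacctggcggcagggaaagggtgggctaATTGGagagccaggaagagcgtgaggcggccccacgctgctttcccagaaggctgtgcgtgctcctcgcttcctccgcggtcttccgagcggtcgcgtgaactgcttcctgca

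PKNOX1 (chr21:42974312-42974611, plus strand): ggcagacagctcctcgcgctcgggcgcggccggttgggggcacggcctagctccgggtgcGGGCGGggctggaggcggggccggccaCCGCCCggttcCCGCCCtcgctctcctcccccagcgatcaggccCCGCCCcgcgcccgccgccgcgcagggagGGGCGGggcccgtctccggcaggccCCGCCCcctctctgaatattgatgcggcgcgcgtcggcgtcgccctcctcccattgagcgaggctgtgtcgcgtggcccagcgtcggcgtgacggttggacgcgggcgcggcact

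PTTG1IP (chr21:44873641-44873940, minus strand): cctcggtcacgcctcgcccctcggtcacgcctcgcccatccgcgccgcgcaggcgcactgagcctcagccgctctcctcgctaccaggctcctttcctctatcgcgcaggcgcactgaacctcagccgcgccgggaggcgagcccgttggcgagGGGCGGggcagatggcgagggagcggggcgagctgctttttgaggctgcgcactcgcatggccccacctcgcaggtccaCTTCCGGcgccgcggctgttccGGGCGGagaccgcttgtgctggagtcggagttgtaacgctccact

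KRTAP10-7 (chr21:44600347-44600646, plus strand): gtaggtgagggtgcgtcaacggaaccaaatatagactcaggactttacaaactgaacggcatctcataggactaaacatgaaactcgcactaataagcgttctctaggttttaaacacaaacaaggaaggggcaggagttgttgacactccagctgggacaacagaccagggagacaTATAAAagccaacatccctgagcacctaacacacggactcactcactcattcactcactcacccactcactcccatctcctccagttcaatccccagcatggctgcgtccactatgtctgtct

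The GC box was the commonest of these motifs in the 9 promoters, with 6 matches in PKNOX1, 4 in NRIP1, 3 in BTG3, 2 each in C21orf91, MRPL39 and PTTG1IP, and 1 each in HSPA13 and CCT8. The 2 other windows of NRIP1 differed, with 3 GC boxes in one and 1 GC box and 2 CCAAT boxes in the other. An ETS site stood in BTG3 and in PTTG1IP, a CCAAT box in CCT8, and a TATA box only in KRTAP10-7. Among 257 promoter windows of chromosome 21 in the table, 46.3% held a GC box, 12.8% an ETS site, 23.3% a CCAAT box and 21% a TATA box. Over all 22198 windows the shares were 56.3%, 12.8%, 34.7% and 9.47%. The TATA box share of chromosome 21 came largely from genes for keratin-associated proteins, 75.6% of whose windows held one.

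The 3 parts differed in gene content before any treatment was compared. The proximal part held 29 protein-coding genes with a known start, the middle part 57 and the distal part 150, or 1.95, 4.75 and 10.2 per Mb, counted between the bounds and, at the ends of the chromosome, from the first and to the last region. Chromosome 22 held 10.9 per Mb. Regions followed the same order, with 6.71, 12 and 48.3 per Mb on chromosome 21 and 52.4 per Mb on chromosome 22. The distal part thus had about the density of chromosome 22, and the proximal part the lowest. The widest stretch without any region measured 3.47 Mb and parted the short-arm side of the proximal part from its long-arm side.

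A peak within 1 kb of a gene start was found for 9, 9 and 9 of the 29 proximal genes in DMSO samples 1 to 3 and for 7, 9 and 9 in APH samples 1 to 3. In the middle part the same count was 13 of 57 in every sample. In the distal part it was 88, 91 and 87 of 150 with DMSO and 92, 92 and 91 with APH, with 91 found in both groups (exact permutation test on 3 against 3 samples, p = 0.2). The low middle share came from keratin-associated protein genes: 33 of the 57 middle genes belong to that family and none had a peak, while 13 of the other 24 did in every sample. In the distal part 3, 5 and 3 of 16 genes of the family had a peak with DMSO and 6, 6 and 5 with APH (exact permutation p = 0.2). The other 134 distal genes gave 85, 86 and 84 against 86, 86 and 86 (exact permutation p = 0.4).

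The number of peaks differed between parts. The proximal part had 73, 84 and 73 peaks with DMSO and 66, 71 and 57 with APH, a mean of 76.7 (SD 6.35) against 64.7 (SD 7.09). The groups did not overlap, and the exact permutation test gave p = 0.1, the lowest value that a two-sided test of 3 against 3 samples can reach. The middle part had 103, 125 and 92 against 115, 124 and 95 peaks (exact p = 0.8), and the distal part 467, 532 and 469 against 529, 574 and 489 (exact p = 0.3). Middle and distal counts overlapped between groups, with slightly more peaks on average under APH, as on chromosome 22 (mean 1500 against 1610, exact permutation p = 0.2).

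Samples also differed in how many peaks had been called in all, from 64511 in DMSO 3 to 84510 in APH 2, so shares are the fairer comparison. The proximal part held 0.111%, 0.109% and 0.113% of a sample's peaks with DMSO and 0.0827%, 0.084% and 0.0813% with APH. Every APH sample was below every DMSO sample, a difference of -25.5% in the mean share (log2 ratio -0.42, exact permutation p = 0.1). The middle share was -7.51% apart (exact p = 0.3), the distal share -4.04% (exact p = 0.2) and the share of chromosome 22 -4.73% (exact permutation p = 0.2), with overlapping groups in all 3. The middle and chromosome 22 shares depended on which peaks were counted, as given with the alternatives below. The bounds of the parts were proposed with earlier results of these same samples known, so the p-values on the parts are no independent support.

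**Figure D1:**
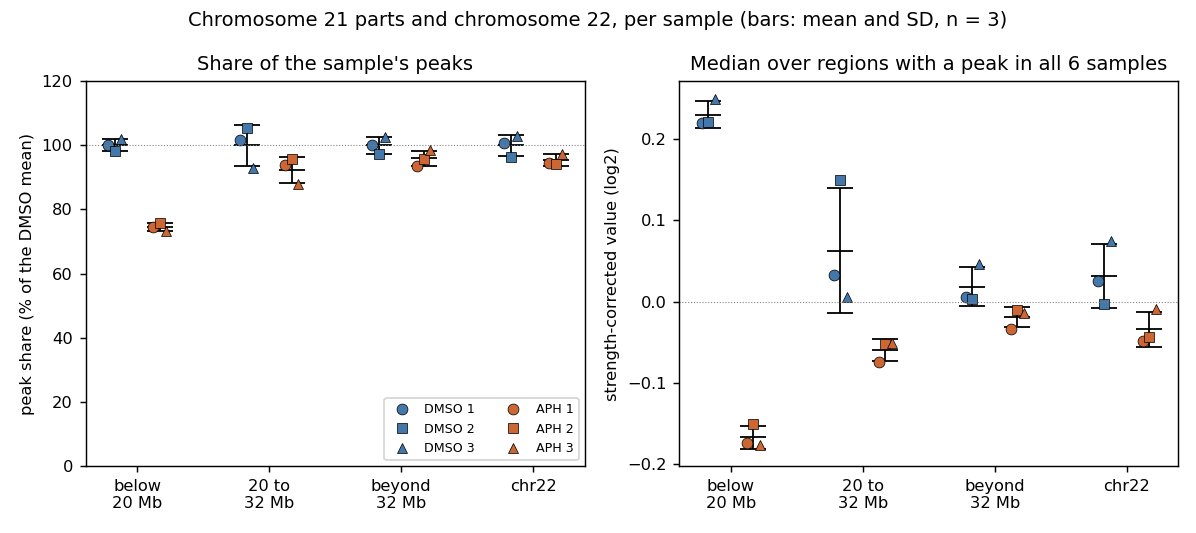
Peak share relative to the DMSO mean (left) and median strength-corrected value (right) of the 3 parts of chromosome 21 and of chromosome 22, for each of the 6 samples.

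Counted within chromosome 21 alone, the proximal part made up 11.4%, 11.3% and 11.5% of the chromosome's peaks with DMSO and 9.3%, 9.23% and 8.89% with APH (exact permutation p = 0.1). The distal part made up 72.6%, 71.8% and 74% against 74.5%, 74.6% and 76.3% (exact p = 0.1), and the middle part held 15.8% and 15.7% on average. The lower proximal share was present on both sides of the widest gap. On the short-arm side the mean share was 0.0548% with DMSO and 0.0428% with APH, and on the long-arm side 0.0562% and 0.0399% (exact permutation p = 0.1 for each). The first 20 Mb of chromosome 22 had 0.204% and 0.191% (exact permutation p = 0.1), a smaller gap between groups. The left panel of the plot of the parts shows how far the proximal share stands from the other 3.

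Which samples had a peak in a region is a description, since these presences chose the regions. Of the 100 proximal regions, 71 had a peak in both conditions, 7 only with APH and 22 only with DMSO. The middle part had 116, 16 and 12, and the distal part 523, 131 and 55. Over the whole genome 18.5% of regions had peaks only with APH and 7.03% only with DMSO, so the proximal part stood the other way round, with 7% and 22%. The proximal regions seen only with DMSO were weak: their median value was 23.4 against 42.4 for proximal regions seen in both conditions, and none of them had a peak in all 3 DMSO samples. This was much the same over the genome, with medians of 24 against 46.7. There 189 of 7228 regions seen only with DMSO had a peak in all 3 DMSO samples. Most of the 22 proximal regions seen only with DMSO had a peak in a single sample. Often this was DMSO 2, which had the most called peaks of its group (77194).

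The bounds themselves fell in sparse DNA. The last region below 20 Mb (chr21:18951742-18951959) had a peak only in DMSO 2, with a value of 23, and the first beyond it (chr21:20882594-20882800) only in DMSO 1 and 2, with 19.8 and 22.3. The last region below 32 Mb (chr21:31933681-31934078) had a peak in 4 samples. The first beyond 32 Mb (chr21:32007457-32007855) had values of 29.1, 55.4 and 23.2 with DMSO and 38.4, 42.2 and 33.9 with APH.

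The deposited value of a peak, called signal, is the mean coverage by extended sequence alignments over the peak. It was not multiplied by a scaling factor, and whether reads were first reduced to equal numbers is not known. The mean proximal value was 114, 121 and 115 with DMSO and 102, 106 and 101 with APH. The middle part gave 61.6, 69.7 and 66.6 against 55.4, 58.3 and 57.5, and the distal part 75.1, 82.3 and 79.1 against 66.2, 70.1 and 67. By these means APH samples were below DMSO samples in every part and on chromosome 22 (mean 83.6 against 72.2; exact permutation p = 0.1 for each). By medians the middle part overlapped, with 39, 42.5 and 44 against 39.5, 39.6 and 35.8 (exact permutation p = 0.3). The lower mean was thus found outside chromosome 21 too. In a bulk population fewer cells with an open site and less signal per cell cannot be told apart.

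Divided by the mean of all peaks of the same sample, the values of the parts differed little between APH and DMSO. On the log2 scale the relative proximal value was 0.54, 0.50 and 0.47 with DMSO and 0.56, 0.54 and 0.51 with APH (exact permutation p = 0.2). The middle part had a mean of -0.32 in both groups, and the distal part -0.06 and -0.07 (exact permutation p = 0.5). The proximal mean rests on 2 regions. They lie in the long non-coding RNA gene LOC102724701 on the short arm and were the strongest and second strongest of the whole genome: chr21:6371684-6372413 had 1740, 2150 and 1710 with DMSO and 1560, 1750 and 1360 with APH, and chr21:6368966-6371564 had 1560, 1860 and 1550 against 1330, 1590 and 1150. Groups overlapped in both regions. Without them the difference in the relative proximal value was -0.06 in place of 0.03 (exact permutation p = 0.2 both ways), while for peaks at or above the median value it was 0.26 (exact permutation p = 0.1), so its direction depended on the peaks counted.

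A mean over called peaks moves with the weak peaks that each sample includes, so the comparison was repeated on shared regions, those called in every one of the 6 samples. There were 48 in the proximal part, 71 in the middle part and 358 in the distal part, 50.1% of all regions of chromosome 21 (48.8% in the genome). Shared regions of the genome were sorted into 50 groups of like strength, and the sample's median in the group was subtracted from each log2 value. What remains, the strength-corrected value, is free of any factor that acts on a whole sample or on all regions of like strength.

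The median strength-corrected value of the proximal part was 0.22, 0.22 and 0.25 with DMSO and -0.17, -0.15 and -0.18 with APH, a difference of -0.40 (exact permutation p = 0.1). The middle part differed by -0.12 and the distal part by -0.04 (exact p = 0.1 for each), and chromosome 22 by -0.07 (exact permutation p = 0.1). The groups did not overlap in any of these, and the proximal difference was the largest, as the right panel of the plot of the parts shows. With each sample centred only on its median the proximal groups stayed apart (-0.37, exact permutation p = 0.1), while those of the middle part, the distal part and chromosome 22 overlapped (exact permutation p = 0.2, 0.3 and 0.2). Taken within each sample, proximal minus distal was -0.36 apart between groups (exact p = 0.1), middle minus distal -0.08 (exact p = 0.2), and chromosome 21 minus chromosome 22 only -0.01 (exact permutation p = 0.6). In relative peak value chromosome 21 minus chromosome 22 was -0.014 apart without overlap (exact permutation p = 0.1), and in log2 peak share -0.04 apart with overlap (exact permutation p = 0.2). The peak share of all chromosome 21 was 0.976%, 0.96% and 0.983% with DMSO and 0.89%, 0.91% and 0.914% with APH, -7.03% in the mean and without overlap (exact permutation p = 0.1), beside the -4.73% of chromosome 22.

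Both sides of the proximal gap had the lower value, with -0.43 in 26 regions on the short-arm side and -0.33 in 22 on the long-arm side. The first 20 Mb of chromosome 22 had -0.10 in 101 regions and the rest -0.06 in 1002. The difference was larger in promoter regions than in other regions of each part: -0.61 in 9 promoter regions and -0.33 in 39 others in the proximal part, -0.19 in 15 and -0.12 in 56 in the middle part, and -0.16 in 87 and -0.02 in 271 in the distal part. Over the whole genome promoter regions had -0.08 and others 0.03. Promoter values differed within groups: in the genome DMSO 2 was the lowest DMSO sample (-0.08) and APH 3 the highest APH sample (0.08). The same 2 samples stood nearest each other in proximal promoters, with 0.09 in DMSO 2 and 0.01 in APH 3. The promoter values overlapped between groups in the middle part, the distal part (exact permutation p = 0.2 for each) and the genome (exact permutation p = 0.3), and stayed apart in the proximal part (exact permutation p = 0.1). Values of other regions stayed apart in the proximal and middle parts (exact permutation p = 0.1 for each). They overlapped in the distal part (exact permutation p = 0.6) and the genome (exact permutation p = 0.3).

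**Figure D2:**
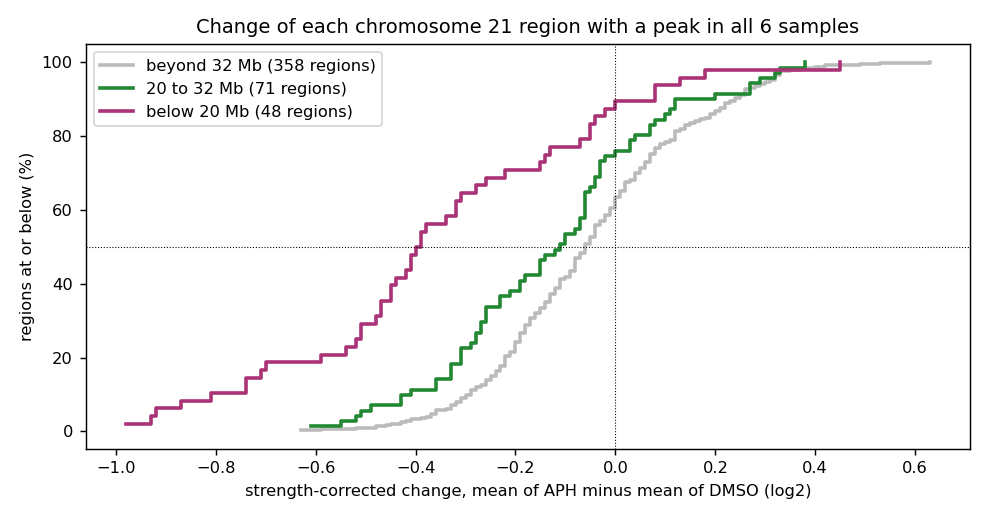
Cumulative share of chromosome 21 regions with a peak in all 6 samples by their strength-corrected difference between APH and DMSO, for the 3 parts.

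The proximal curve lies to the left over nearly its whole length, so the low median did not come from a few regions. Of the 48 proximal regions 87.5% were lower with APH, of the 71 middle regions 74.6%, of the 358 distal regions 61.2%, and of all shared regions in the genome 51.3%. All 3 APH samples were below all 3 DMSO samples in 15 proximal regions (31.2%), 12 middle regions (16.9%) and 31 distal regions (8.66%), against a background of 7.48%. The opposite order was seen in 1 (2.08%), 2 (2.82%) and 19 (5.31%) regions, against 8.68%. The distal part was close to the background in the lower direction and below it in the higher one.

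In the limma fit without pairing no single region passed the genome-wide test. Over all 50150 shared regions, 0 of the 477 on chromosome 21 had an adjusted p under 0.05 (0% of the genome). At an unadjusted p under 0.05, 18 proximal, 9 middle and 37 distal regions were lower with APH against a background of 10.1%, and 0, 0 and 5 were higher against 2.46%. In the same fit of strength-corrected values 24, 10 and 21 regions were lower against 4.56% and 1, 1 and 11 higher against 5.83%, and again none passed adjustment. The proximal part thus had the highest share of regions on the lower side of the looser cut, while the distal part was near the background in the raw fit. With the replicate numbers as a block the counts were very different: 76 regions of chromosome 21 were called lower and 3 higher in limma, among 5583 and 1021 in the genome (11.1% and 2.04%).

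Along the chromosome, windows of 1 Mb gave the same order. Of strength-corrected windows at an unadjusted p under 0.05, 4 of 7 proximal, 3 of 6 middle and 2 of 15 distal windows were lower (4.88% of 2521 in the genome), and none were higher (6.74%); 0 passed adjustment. The windows from 8 to 9 Mb and from 15 to 16 Mb had the largest differences, each of -0.51 (standard errors 0.08 and 0.10, limma adjusted p = 0.131 and 0.156). One lies on the short arm over ribosomal DNA and the other on the long arm. On chromosome 22 the window from 11 to 12 Mb had -0.47 (standard error 0.06, limma adjusted p = 0.131) on 4 regions.

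**Figure D3:**
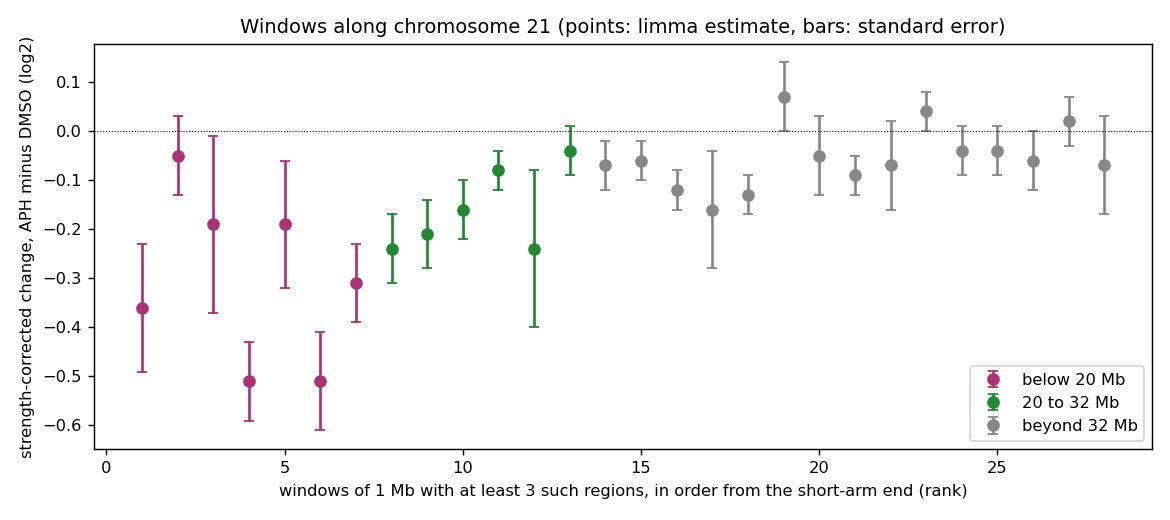
Strength-corrected difference between APH and DMSO in windows of 1 Mb along chromosome 21, in order from the short-arm end, with standard errors.

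The proximal windows were spread widely and in no order of position, from -0.51 to -0.05, and the distal windows lay closer to 0. Peak shares by window had 4 of 5 proximal, 1 of 6 middle and 3 of 15 distal windows lower at an unadjusted p under 0.05 (4.13% of 2541 in the genome) and 1 higher (6.57%), with 0 after adjustment. With the replicate numbers as a block 5 windows passed as lower, those from 17, 18 and 28 Mb among them (2.64% in the genome, and 2.64% higher). The windows with the lowest p were those from 17 to 18 Mb (log2 difference -0.45, standard error 0.12, limma adjusted p = 0.151) and from 28 to 29 Mb (-0.56, standard error 0.15, limma adjusted p = 0.154); the largest difference, from 18 to 19 Mb, was -0.78 with a wider standard error of 0.25 (limma adjusted p = 0.245). Mean peak values by window, relative to the sample mean, had 2 of 7 proximal windows lower (2.97% of 2595 in the genome) and 1 middle window higher (10.2%), that from 28 to 29 Mb, with 0.27 (standard error 0.07, limma adjusted p = 0.241). This window had a lower peak share but a higher mean among the peaks that were called. The strength-corrected value of its 7 shared regions was lower with APH (-0.16, standard error 0.06, limma adjusted p = 0.387).

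The largest differences in raw region values on chromosome 21 lay over RNA45SN1, one of 3 annotated copies on this chromosome of the gene for the precursor of the large ribosomal RNAs. The copies are nearly identical, and the authors kept only uniquely mapped reads, so the values rest on reads that could be placed at this copy. The region chr21:8433987-8434387 had 394, 529 and 366 with DMSO and 239, 230 and 190 with APH (log2 difference -0.95, standard error 0.15, limma adjusted p = 0.29). The region chr21:8442197-8442557 had 152, 108 and 141 against 56.2, 65.5 and 73.9 (-1.02, standard error 0.18, limma adjusted p = 0.29). In both, every APH sample was below every DMSO sample, an order of raw values found in 14.4% of all shared regions of the genome and in 38.3% of those at promoters.

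**Figure D4:**
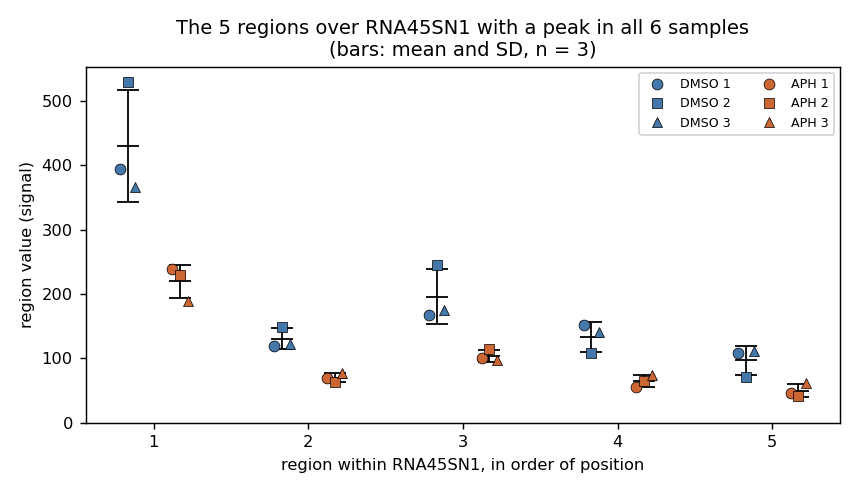
Values of the 5 regions over RNA45SN1 with a peak in all 6 samples, in order of position.

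The other 3 regions over this gene, looked up after those values were seen, had 120, 149 and 122 against 69, 63 and 76.9 (-0.89), 167, 245 and 176 against 100, 114 and 97.7 (-0.89), and 108, 70.4 and 112 against 46.3, 41.8 and 62 (-0.93). Groups stayed apart in all 5, and after strength correction in 4 of the 5, with differences from -0.93 to -0.70 (this corrected order was found in 7.48% of the genome's shared regions); by corrected values a region at BTG3, given below, was lower still. The regions share a gene and possibly its copies and are not independent of each other. By mean value chr21:8219742-8220356 was the strongest proximal region after the 2 strongest of the genome, and stronger than any over RNA45SN1. It had 542, 546 and 556 with DMSO and 541, 547 and 397 with APH, so 2 of the APH samples were level with DMSO. In the higher direction the proximal region of lowest p, chr21:6363477-6363983 in LOC102724701, had 83.4, 103 and 95.2 against 136, 122 and 98.1 (log2 difference 0.33, limma adjusted p = 0.427); raw groups overlapped, and corrected ones stayed apart (0.45). The next, chr21:17463449-17463789, had 23.4, 38.1 and 36.2 against 31.9, 38.3 and 45.8, with overlap (corrected 0.18).

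Among proximal promoters, HSPA13, which encodes a member of the 70 kDa heat shock protein family, was the strongest. Its region had 226, 332 and 278 with DMSO and 176, 223 and 128 with APH (log2 difference -0.68, after strength correction -0.44). All APH samples were lower, but the corrected groups overlapped. NRIP1 encodes a corepressor of nuclear receptors, and 2 regions lay at its start: one had 51.8, 56.9 and 68.5 against 35.6, 31.1 and 43.3 (-0.68, standard error 0.22, limma adjusted p = 0.29; corrected -0.74), the other 53.2, 45.9 and 46.1 against 37.8, 35.6 and 32.8 (corrected -0.52). BTG3, a gene of the antiproliferative BTG/Tob family, had 2 regions as well, with 59.4, 42.3 and 74.3 against 23.5, 26 and 46.2 (-0.89, corrected -0.98) and with 90.7, 97.9 and 89.3 against 49.5, 49.5 and 65.2 (-0.76, standard error 0.19; corrected -0.74). In the first BTG3 region APH 3 overlapped the DMSO samples, and in the second the groups stayed apart.

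C21orf91 had 96, 74.8 and 79.1 with DMSO and 37.8, 43.5 and 55.8 with APH (log2 difference -0.86, corrected -0.87), without overlap. USP25, which encodes a deubiquitinase, had 46.7, 32 and 64.9 against 38, 27.5 and 44.8 (-0.34, corrected -0.41), with groups that overlapped. The printed windows of HSPA13, NRIP1, BTG3 and C21orf91 held 21, 32, 48 and 39 CpG sites, and the other 2 of NRIP1 held 48 and 14. Over chromosome 21 the median window with a peak in all 6 samples held 32 CpG and the median window with none held 6.

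**Figure D5:**
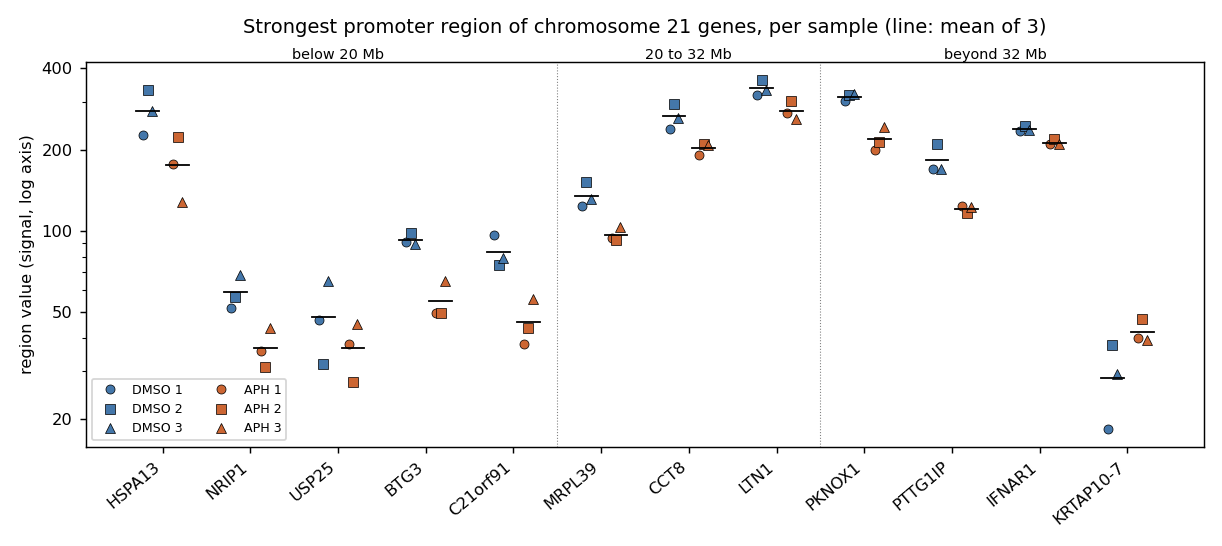
Values of the strongest promoter region of 12 genes of chromosome 21 in each sample, on a log axis.

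In the middle part the strongest region was the promoter of LTN1, a ubiquitin ligase of ribosome quality control, with 318, 364 and 332 against 274, 303 and 260 (log2 difference -0.28, after strength correction only -0.03). CCT8, a subunit of the TRiC chaperonin, had 239, 296 and 263 against 191, 209 and 208 (-0.39, standard error 0.13, limma adjusted p = 0.295; corrected -0.15). MRPL39, a protein of the mitochondrial ribosome, had 123, 151 and 131 against 93.9, 92.3 and 103 (-0.48, standard error 0.15, limma adjusted p = 0.29; corrected -0.33). Raw values did not overlap in any of the 3, which is common among promoters, as given above. After correction the groups stayed apart for CCT8 and MRPL39 but overlapped for LTN1, whose raw difference was close to that of other regions of its strength. The middle regions of lowest p in the higher direction were weak and overlapped: chr21:29187954-29188353 had 32.3, 28.4 and 19.2 against 46.9, 37.2 and 27.2 (corrected 0.38), and chr21:28781630-28781969 in HEMK2 had 32.8, 35 and 18.2 against 41.1, 38.9 and 31.1 (corrected 0.32).

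In the distal part PKNOX1, a homeodomain transcription factor, had 303, 319 and 321 against 199, 214 and 243 (log2 difference -0.53, standard error 0.13, limma adjusted p = 0.29; corrected -0.30, with overlap). PTTG1IP, which encodes a binding protein of securin, had 169, 210 and 170 against 123, 116 and 122 (-0.59, standard error 0.14, limma adjusted p = 0.29; corrected -0.42). Both were named for their low p and are the lower end of a part whose median was close to 0. At the higher end, the region at KRTAP10-7 had 18.3, 37.6 and 29.3 against 40, 47.1 and 39.4 (0.61, standard error 0.25, limma adjusted p = 0.338; corrected 0.53), and a region in the long non-coding RNA gene LINC00334 had 24.9, 36.8 and 38.6 against 43.3, 62.5 and 55.6 (0.68; corrected 0.63, with overlap). The KRTAP10-7 values were below the median peak value of the sample in all 6 samples, and those of LINC00334 were above it in 2 APH samples.

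Genes were also listed by role. In the genome 11566 of 19671 protein-coding genes had a promoter peak in all 6 samples, and 105 of 236 on chromosome 21, and the lists are to be read against this. All 4 cytokine receptor genes (IFNAR1, IFNAR2, IL10RB, IFNGR2) had a promoter peak in all 6 samples, and after strength correction 3 were lower with APH and 1 higher (median -0.10), each with overlapping groups. IFNAR1 had 234, 244 and 236 against 209, 218 and 209, and its corrected difference of 0.07 went the other way. The interferon-induced genes MX1 and MX2 were both open, with 1 lower and 1 higher, and of 4 signalling genes DYRK1A and RCAN1 were open in all samples (median -0.025). Of 10 transcription factor genes 7 were open in all samples, all 7 were lower after correction (median -0.26), and OLIG1, OLIG2 and ERG had no peak. Of 12 genes for replication, chromatin and centromere 11 were open, with 9 lower and 2 higher (median -0.20). Of 18 genes for basic cell functions 17 were open and all 17 were lower (median -0.15), GART and SON being counted each with the 1 region they share. ATP5PF of this list was counted with the same region as GABPA of the transcription factor list. The gene without a peak was CBS, which has a near copy on the short arm. So has U2AF1 of the same list, and both copies are given below. In these last 3 lists corrected groups stayed apart for 1 of 7, 2 of 11 and 3 of 17 genes. All were lower with APH, U2AF1 among them. This order, with the groups apart, was found in 10.4% of shared promoter regions of the genome and 17.1% of those on chromosome 21. None of these genes passed the adjusted test. Of all shared promoter regions 70% were lower in the genome and 82.9% on chromosome 21, and the counts of the lists are to be read against these shares.

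BRWD1, a bromodomain protein gene of the replication and chromatin list, had 181, 183 and 175 with DMSO and 129, 144 and 138 with APH. DONSON, which encodes a protein of replication initiation and fork protection, had 126, 153 and 180 against 156, 156 and 162. BRWD1 groups stayed apart and DONSON groups overlapped, with corrected differences of -0.20 and 0.26. Only APP of 8 neuronal and adhesion genes was open, none of 3 claudin genes and neither of 2 metalloprotease genes was, and of 6 intestinal secreted and protease genes only TFF1 had peaks, in 4 samples. Among 49 keratin-associated protein genes 3 had a peak in all samples, 5 in some and 41 in none. The corrected differences of the 3 were 0.07 (KRTAP10-11), 0.40 (KRTAP10-4) and 0.53 (KRTAP10-7), and only for KRTAP10-7 did the groups stay apart.

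Some short-arm genes are near copies of long-arm genes, so their peaks cannot be placed with certainty. Over the promoter window of 300 bases, LOC102724023 matched GATD3 in 297, and a peak was called in all 6 samples at the short-arm copy and in none at the other. LOC102724594 matched U2AF1 in 299, with peaks in 5 samples and in 6. LOC102724560 matched CBS in 299, with no peak at either. SIK1, CRYAA, C21orf140 and SMIM34 had a short-arm copy identical in all 300. Reads from such windows cannot be placed uniquely and were left out by the authors' filter, so the absence of a peak there is not informative. The short-arm copies lie in the proximal part, so the count of proximal genes with a peak is to be read with this limit.

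The labelled cell type was checked by its markers. Of 6 epithelial genes EPCAM and KRT18 had a promoter peak in all samples and KRT8 in 5, while CDH1, KRT19 and CLDN4 had none. Of the intestinal genes CDX2 had 160, 214 and 148 with DMSO and 159, 166 and 135 with APH, LGR5 was open as well, KRT20 had a peak in 2 samples, and CDX1, VIL1, CDH17 and MUC2 had none. The blood genes PTPRC and CD3E and the endothelial gene CDH5 had none, but COL1A1 and RBFOX3, markers of stroma and neurons, were open in all 6.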

How the data were processed

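ATAC-seq peak lists of 6 samples were used, 3 per condition; the paper speaks of independent experiments, and the labels give only replicate numbers, without saying which APH and DMSO samples belong to one experiment. The authors aligned reads with BWA 0.7.12 to hg38 and called peaks in each sample separately with MACS2 2.1.0, per the submitters' processing notes. The deposited value is signal, the mean coverage of a peak in 32-nt bins, without a scaling factor. Value times bins was whole, within 0.0006 per bin, in 100% of the peaks tested (the few largest values, given with fewer decimals, were not). A reduction of reads to equal numbers would leave whole counts too. Sequencing depth is not given. The lowest values were 15.1 to 15.5 in all samples.

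Peaks were merged by 1 bp overlap; a region's value is the length-weighted mean of its peaks, as log2 with 1 added. Parts were compared over samples by exact two-sided permutation tests. Shared regions, and windows of 1 Mb (at least 5 peaks on average for shares, 3 in each sample for values, 3 shared regions for corrected values), were fitted genome-wide with limma 3.58.1 with intensity trend in R 4.3.3 and adjusted by Benjamini-Hochberg at 0.05. Python 3.11.15, numpy 2.4.6, pandas 2.3.3 and matplotlib 3.10.9 were used. Regions and windows were named by lowest p in each direction and by highest value in each part, and genes by lists of roles. Of 239 protein-coding genes of chromosome 21, 236 had a start in the RefSeq tables.

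The members and lists were chosen with earlier results of these data known. Alternatives were peaks at or above the median value, equal numbers of peaks, shifted bounds, medians, other strength groups, other merging and promoter reach, median centring of region values, quantile normalization, a replicate block, and leaving out each sample. Added after seeing the data were the split of the proximal part at its widest gap, the split of chromosome 22, removal of the 2 strongest regions, median centring in place of strength groups, limma on corrected values, proximal minus distal, and keratin-associated genes apart from others. Scripts were tested on simulated data. No genome sequence was at hand, so only promoter sequences are shown.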

Additional observations from a re-analysis of the deposited data

How the results depend on the processing

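The relative proximal value, 0.03 higher with APH, was -0.0584 with medians and -0.0606 without the 2 strongest regions, a reversal, but 0.264 for peaks at or above the median (exact permutation p = 0.1) and 0.0987 with equal numbers of peaks; its leave-one-out range was 0.015 to 0.052. The relative middle value, near 0, was 0.0271 for peaks at or above the median, 0.0736 with equal numbers of peaks, 0.0038 with bounds at 19 and 31 Mb, -0.0242 with bounds at 21 and 33 Mb and 0.014 with medians, and ran from -0.014 to 0.014 with samples left out in turn. That of chromosome 22, -0.0043, reversed to 0.015 for peaks at or above the median (exact permutation p = 0.1). It was -0.0419 with equal numbers of peaks and -0.0151 with medians. By medians the middle value differed by -3.52 with overlap (exact permutation p = 0.3), against -8.89 by means. Middle promoters with a peak differed by 0.333 at 2 kb and by 0 at 1 kb.

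The proximal share difference ran from -0.0293 to -0.0272 points, and the proximal strength-corrected difference from -0.41 to -0.34, with samples left out in turn. The middle share difference, -0.0115 points (exact p = 0.3), was -0.0169 for peaks at or above the median and -0.0248 with equal numbers of peaks (exact permutation p = 0.1 for each), and that of chromosome 22, -0.102, was -0.152 (exact permutation p = 0.1) and -0.0233. The other leave-one-out ranges of shares were -0.0171 to -0.00739 (middle), -0.0382 to -0.0193 (distal) and -0.141 to -0.0695 (chromosome 22). Those of strength-corrected values were -0.15 to -0.11, -0.05 to -0.04 and -0.08 to -0.05 in the same order. For corrected values the exact permutation p was 0.2 in the middle part without APH 3 and in the distal part without APH 1. With groups of unequal size such a p does not by itself show that they overlapped. On chromosome 22 the exact permutation p reached 0.3. Ranges of relative values were -0.016 to -0.0035 (distal) and -0.0087 to -0.0015 (chromosome 22).

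Chromosome 21 regions called lower numbered 0 in the main fit, 1 after centring on the sample median (chr21:8433987-8434387, over RNA45SN1; 1 of 50150 in the genome), 0 to 2 with samples left out (2 without DMSO 2, both over RNA45SN1, of 3 in the genome) and 76 with a replicate block, which also called 3 higher (11.1% and 2.04% in the genome). Windows called lower by share were 5 with the block (from 8, 17, 18, 28 and 40 Mb; 67 of 2541 in the genome, and 67 higher) and 1 with equal numbers of peaks (from 28 Mb; 2 of 2387 in the genome); by strength-corrected value 0 to 1 with samples left out (from 8 Mb, without DMSO 2; 1 in the genome). The cause was not tested. Whether equal numbers mark samples of one experiment is not stated. Same-number correlations were -0.01, 0.48 and 0.51, the last 2 the highest of all 9, but DMSO 1 correlated best with APH 3 (0.12), so pairing is unsettled and the calls depend on it.

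With 3 samples a group no permutation p can go below 0.1. Depth is unknown, peaks were called per sample, and a region without a call is not closed. Short-arm sequence is repeated, so its alignments are uncertain.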
